A study of Mus musculus with 12 samples.

Results

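Toll-like receptors sense microbial products and molecules set free by damaged cells, and CD14 is the surface protein that hands lipids over to several of them. The 10 genes described here are the 9 Toll-like receptor genes Tlr1, Tlr2, Tlr3, Tlr4, Tlr6, Tlr7, Tlr8, Tlr9 and Tlr13 together with Cd14. They were taken from the table by gene symbol, as 10 of its 55092 features, and the set was drawn up with earlier results of these data known. The data are RNA-Seq of the abdominal aorta of 12 male mice in 4 groups of 3, with 1 library per mouse. CFS mice carried floxed CCN2 alleles without Cre (CCN2fl/fl) and received saline. CSS mice carried the same floxed alleles with the Myh11-Cre-ERT2 transgene, which deletes CCN2 in smooth muscle cells after tamoxifen (CCN2SMCΔ), and also received saline. CFA mice were CCN2fl/fl and CSA mice were CCN2SMCΔ, both infused with Ang II at 500 ng/kg/min. Saline or Ang II was delivered by mini-osmotic pump and aortas were taken on day 7. At that day the paper reports infrarenal aneurysm in nearly all CCN2SMCΔ mice under Ang II. Only a few CCN2fl/fl mice had one, mild and in the thoracic or suprarenal aorta. Which of the sequenced mice had an aneurysm is not given. In CSA, differences that go with genotype and those that go with aneurysm therefore cannot be told apart. All 4 groups had been given 5 consecutive tamoxifen doses at 8 weeks of age, followed by a washout of 2 weeks, so the controls differ from the CCN2SMCΔ mice in Cre but not in tamoxifen. Because the Myh11 promoter restricts Cre to smooth muscle, CCN2 of other cell types of the wall is not targeted.

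Toll-like receptors fall into a group on the cell surface and a group in endosomes. On the surface, TLR2 pairs with TLR1 or TLR6 to bind bacterial lipopeptides, and TLR4 with its partner MD-2 binds lipopolysaccharide that CD14 delivers. In endosomes, TLR3 binds viral-type RNA duplexes, TLR7, TLR8 and TLR13 belong to the RNA-sensing branch, and TLR9 binds DNA rich in unmethylated CpG. Signals pass through the adaptor MyD88, or for TLR3, and for TLR4 in part, through TRIF, to kinases that switch on NF-κB and interferon regulatory factors. In arteries, macrophages and other myeloid cells carry the broadest set of these receptors, whereas TLR3 and TLR4 are also known from smooth muscle, endothelial and fibroblast cells.

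Libraries held 14558580 (CSA mouse 03) to 23107807 recovered fragments, where a fragment is 1 sequenced cDNA piece. Levels are given as FPKM, the fragments of a gene scaled to its length in kilobases and to the size of the library. Differences are given on the log2 scale of FPKM + 0.1, and fold values come from that scale. "Limma adjusted p" stands for the p-value of limma after Benjamini-Hochberg adjustment over 14676 genes. CSA mouse 03 stood apart from its group: the root mean square difference of log2 levels over 14676 tested genes was 0.505 between CSA mice 01 and 02, but 1.213 and 1.199 from them to mouse 03, against 0.586 to 0.743 within the other groups. Differences of the 10 genes that involve CSA, and the counts of calls among them, are therefore also given without it, and levels are given by mouse. Ccn2 (chr10:24595442-24598683 of GRCm38), the targeted gene, read 709.5, 1108 and 480.1 FPKM in the CFS mice, 436, 639.9 and 587 in CSS, 1013, 1105 and 564 in CFA, and 255, 331 and 399 in CSA. Between genotypes the readings overlapped under saline (log2 difference -0.40, standard error 0.34) and did not under Ang II (-1.41, standard error 0.34, limma adjusted p = 0.00622). These Ccn2 readings include non-muscle cells, and 23.2% of the exonic bases of Ccn2 lie in another annotated gene. The smooth muscle markers Myh11, Acta2, Tagln, Cnn1 and Myocd were present in every library, and their summed level ran from 7681 to 9597 FPKM in CFS, 7135 to 8038 in CSS, 4972 to 7880 in CFA and 757 to 865 in CSA.

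Under Ang II, CCN2SMCΔ aortas held more transcript of most Toll-like receptors than CCN2fl/fl aortas. In CSA against CFA, 8 of the 10 genes were upregulated and 0 downregulated, where upregulated means a limma adjusted p under 0.05 together with a log2 difference over 1.5. The background is 8.95% of all tested genes upregulated and 8.27% downregulated. In RNA of a whole tissue, more cells of a type and more RNA per cell cannot be told apart, nor can fewer cells and less RNA per cell. The 8 were Tlr13, Tlr1, Tlr7, Tlr9, Tlr8, Cd14, Tlr2 and Tlr6. Tlr3 passed the p threshold without reaching the fold limit, and Tlr4 passed neither. The median log2 difference of the 10 was 3.46, against -0.037 for all tested genes. The 3 CSA mice lay above the 3 CFA mice without overlap for 9 of the 10, a pattern found for 23.4% of tested genes. All 10 genes passed the filter on low values (1 FPKM in at least 3 libraries), but Tlr1, Tlr6, Tlr9 and Tlr13 passed it only through the CSA libraries and so had to differ there. Of the 6 that passed without them, 4 were upregulated. With no filter the count was again 8. Without CSA mouse 03 it was also 8.

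**Figure D1:**
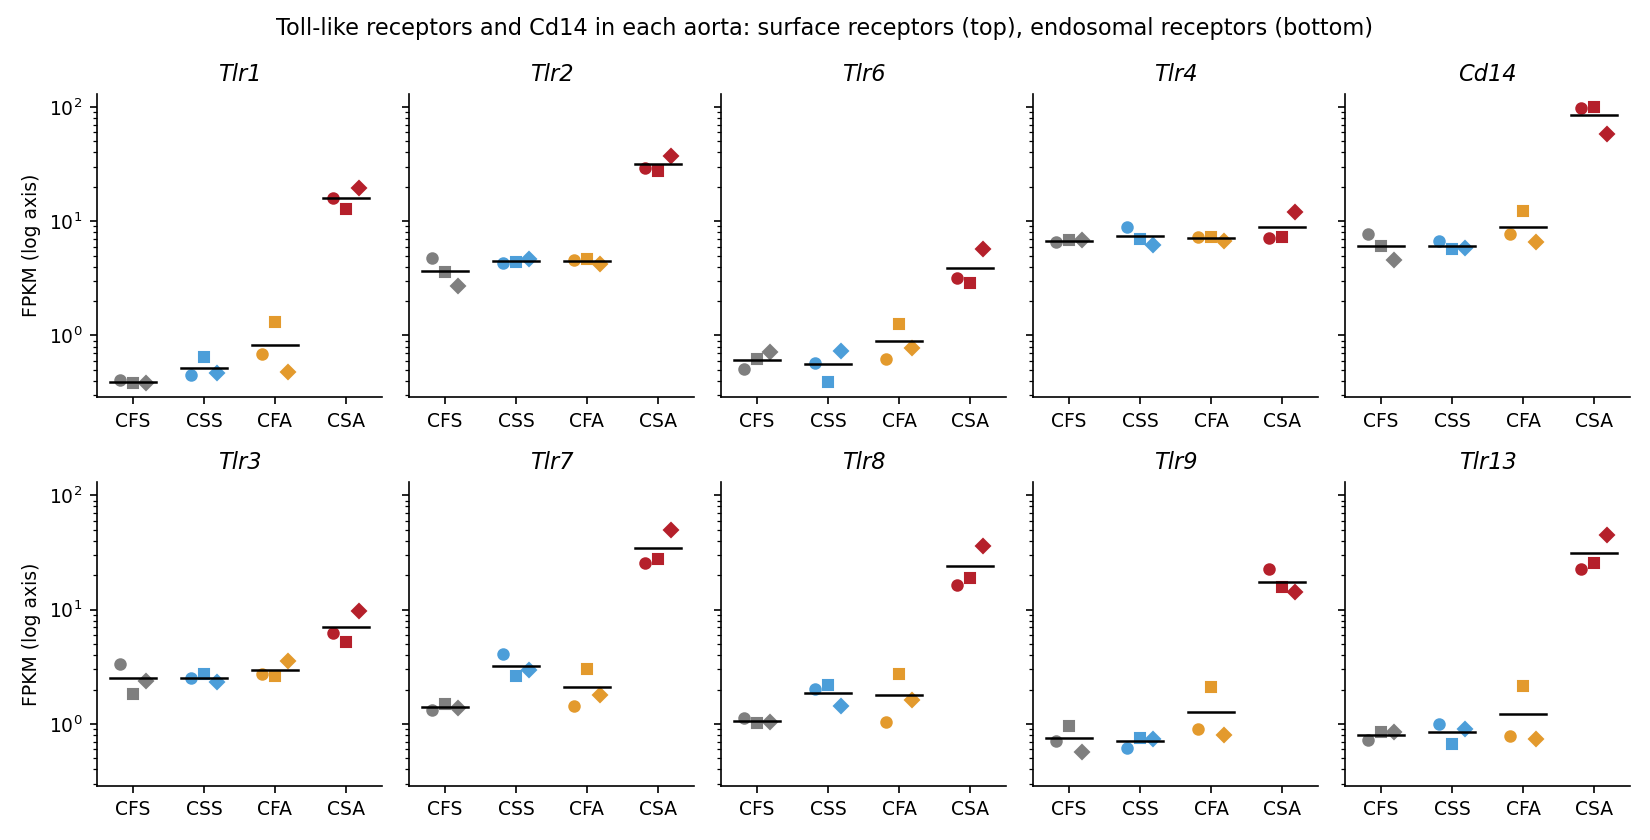
Level of each gene in FPKM on a log axis, with 1 point per mouse (circle, square and diamond for the 3 mice of a group in ascending order of mouse number) and a black line at the group mean, for receptors of the cell surface with Cd14 (top) and of endosomes (bottom). The CSA points stand clear of the other groups in every panel but that of Tlr4, where CSA mice 01 and 02 sit among them at 7.19 and 7.28.

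Several of these genes moved together, so the DNA around their start sites is shown. RefSeq windows on GRCm38.p6, from 250 bases before to 50 after a transcript start, were found for 7 of the 10 genes, as 9 windows in all. They were searched on both strands for the core GAGGAA bound by the myeloid factor PU.1, the interferon-response element GAAANNGAA, the AP-1 site TGANTCA, the NF-κB site (κB) and the TATA box TATAAA. The PU.1 core stood in 4 of the 9 windows, 1 each of Tlr1, Tlr8, Tlr9 and Tlr13, against 27.9% of 25163 windows of the table's genes. Of the 7 genes with a window 6 were upregulated in CSA against CFA, Tlr2 and Tlr6 among them without a PU.1 core, and of the 4 with the core, Tlr1, Tlr9 and Tlr13 passed the filter only through the CSA libraries. Each stretch has 150 bases and ends 24 bases after the start, written 5′ to 3′ in the direction of the gene, and capitals mark the core or its reverse complement. A run of bases downstream of the start was found in a GENCODE transcript for Tlr13, Tlr8 and Tlr9, but not for Tlr1. The run had to lie unbroken in a spliced transcript, so the missing match does not tell how certain the Tlr1 start is. The 5′ end of Tlr1 in GENCODE, at 64933563, lies within the printed stretch.
Tlr13 (chrX:106143150-106143299, plus strand): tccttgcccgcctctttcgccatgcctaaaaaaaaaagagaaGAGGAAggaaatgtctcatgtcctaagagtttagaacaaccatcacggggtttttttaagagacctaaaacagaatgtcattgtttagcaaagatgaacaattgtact
Tlr8 (chrX:167264305-167264454, minus strand): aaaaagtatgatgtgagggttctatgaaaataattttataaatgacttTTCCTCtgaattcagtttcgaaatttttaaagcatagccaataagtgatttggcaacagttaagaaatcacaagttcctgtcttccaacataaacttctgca
Tlr9 (chr9:106222473-106222622, plus strand): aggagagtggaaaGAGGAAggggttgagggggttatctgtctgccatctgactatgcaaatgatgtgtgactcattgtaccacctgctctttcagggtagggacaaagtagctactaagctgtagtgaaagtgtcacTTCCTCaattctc
Tlr1 (chr5:64933534-64933683, minus strand): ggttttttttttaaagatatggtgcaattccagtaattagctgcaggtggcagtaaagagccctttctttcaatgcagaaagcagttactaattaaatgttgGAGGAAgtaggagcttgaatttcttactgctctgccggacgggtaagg

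The window of Tlr2, the lipopeptide receptor shared by both pairs, held no PU.1 core but 3 κB matches. A κB match stood in 2 of the 9 windows, those of Tlr2 and Tlr3, against 4.79% of all windows. In the Tlr2 stretch of 200 bases, which ends 19 bases after the start, capitals mark the κB letters, with 2 overlapping matches in the first run. Its downstream bases were found in a GENCODE transcript of Tlr2. A window with an interferon-response element was found for Tlr6 and Tlr8 (8.37% of all windows), with an AP-1 site for Tlr9 (7.36%) and with a TATA box for Tlr6 and Tlr8 (12.6%). These matches describe letters only, and no binding was measured.
Tlr2 (chr3:83841589-83841788, minus strand): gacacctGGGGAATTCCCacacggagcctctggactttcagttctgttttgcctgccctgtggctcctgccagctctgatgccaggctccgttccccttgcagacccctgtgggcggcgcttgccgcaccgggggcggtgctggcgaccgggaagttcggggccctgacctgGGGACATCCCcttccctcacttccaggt

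Of the lipopeptide receptors, Tlr2 was the most abundant in every group. Tlr2 (ENSMUSG00000027995, GRCm38 chr3:83836272-83841767) read 4.77, 3.56 and 2.73 FPKM in CFS, 4.34, 4.39 and 4.71 in CSS, 4.61, 4.69 and 4.19 in CFA, and 29.1, 27.7 and 37.1 in CSA. The CSA mice were all higher than the other 9, which overlapped among themselves. Against CFA, Tlr2 was 6.78-fold higher in CSA (mean 31.3 ± 5.07, SD, n = 3), up by 2.76 on the log2 scale (standard error 0.19, limma adjusted p = 1.85e-06) or 2.63 without CSA mouse 03.

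Tlr1 (ENSMUSG00000044827, chr5:64924679-64933563), the partner of TLR2 for lipopeptides with a further acyl chain, had the lowest mean of the 10 in CFS, CSS and CFA. In CSS and CFA its mice overlapped with those of Tlr6, the next gene. The FPKM of Tlr1 was 0.404, 0.383 and 0.381 in CFS, 0.450, 0.645 and 0.467 in CSS, 0.686, 1.32 and 0.479 in CFA, and 15.8, 12.8 and 19.6 in CSA. The lowest value rested on 22 fragments, and CFA mouse 72 was higher than the other CFA mice. The mean of 0.830 ± 0.440 in CFA (SD, n = 3) stood against 16.1 ± 3.43 in CSA (SD, n = 3), up by 4.204 on the log2 scale (standard error 0.31, limma adjusted p = 3.42e-06) or 4.05 without CSA mouse 03. A pseudocount of 1 gave 3.23.

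Tlr6, the alternative partner of TLR2, had a smaller log2 difference than either, without a test between the genes. The gene (ENSMUSG00000051498, chr5:64952031-64960097) lies 18.5 kb from Tlr1 on the same strand, with 0 genes of the table between them. It read 0.508, 0.617 and 0.716 FPKM in CFS, 0.578, 0.391 and 0.728 in CSS, 0.628, 1.26 and 0.772 in CFA, and 3.21, 2.88 and 5.69 in CSA. All CSA mice were above all others, with mouse 03 the highest. Tlr6 rose by 2.02 on the log2 scale from CFA to CSA (standard error 0.34, limma adjusted p = 0.000773), and by 1.72 without mouse 03. The call of Tlr6 was lost with a pseudocount of 1, which gave 1.36, and with limma's treat, which tests against a log2 difference of 1.5 rather than against 0 (adjusted p = 0.675 from limma). With treat it was also lost in CSA against CSS (adjusted p = 0.0547 from limma).

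Tlr4 and Cd14 act together on lipopolysaccharide, and their transcripts behaved differently. Tlr4 (ENSMUSG00000039005, chr4:66827584-66930284) was the most abundant Toll-like receptor in CFS, CSS and CFA. It read 6.55, 6.77 and 6.88 FPKM in CFS, 8.90, 6.98 and 6.25 in CSS, 7.23, 7.29 and 6.73 in CFA, and 7.19, 7.28 and 12.1 in CSA. Only CSA mouse 03 left the range of the other groups. Between CSA and CFA it differed by 0.27 on the log2 scale (standard error 0.20, 95% confidence interval -0.16 to 0.71, limma adjusted p = 0.294), and without CSA mouse 03 by 0.03.

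Cd14 (ENSMUSG00000051439, chr18:36725067-36726798) read 7.67, 6.12 and 4.57 FPKM in CFS, 6.74, 5.66 and 5.79 in CSS, 7.74, 12.3 and 6.54 in CFA, and 98.4, 99.02 and 57.4 in CSA. Here CSA mouse 03 was the lowest of its group, yet still above all 9 mice of the others. The CFA mean was 8.85 ± 3.02 and the CSA mean 84.9 ± 23.9 (SD, n = 3 in each group), up by 3.26 on the log2 scale (standard error 0.28, limma adjusted p = 8.64e-06) or 3.52 without mouse 03. Cd14 rose, and Tlr4, the receptor it serves, did not pass the test.

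The RNA-sensing endosomal receptors Tlr7, Tlr8 and Tlr13 all lie on the X chromosome. Tlr7 (ENSMUSG00000044583, chrX:167304929-167330558) and Tlr8 (ENSMUSG00000040522, chrX:167242696-167264329) are close relatives, on the same strand with 40.6 kb and 0 genes of the table between them. Tlr7 read 1.31, 1.49 and 1.39 FPKM in CFS, 4.09, 2.62 and 2.94 in CSS, 1.44, 3.04 and 1.79 in CFA, and 25.4, 27.8 and 49.9 in CSA. Each group ran above CFS in its mean, and CSA far above the other 3. From CFA to CSA, Tlr7 rose 15.7-fold, or by 3.98 on the log2 scale (standard error 0.30, limma adjusted p = 4.3e-06), and 3.67 without CSA mouse 03.

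Tlr8 followed Tlr7 closely. Its FPKM was 1.13, 1.03 and 1.03 in CFS, 2.04, 2.18 and 1.42 in CSS, 1.04, 2.76 and 1.60 in CFA, and 16.4, 19.05 and 36.1 in CSA. CSA mouse 03 was 2.03 times the mean of its 2 group mates, the largest such ratio among the 10 genes. From CFA to CSA it rose 12.7-fold, or by 3.67 on the log2 scale (standard error 0.35, limma adjusted p = 1.72e-05), and 3.33 without that mouse.

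Tlr13 (ENSMUSG00000033777, chrX:106143204-106160493), a receptor for bacterial ribosomal RNA that mice have, had the largest log2 difference of the 10. It read 0.729, 0.845 and 0.849 FPKM in CFS, 1.0002, 0.664 and 0.897 in CSS, 0.779, 2.13 and 0.734 in CFA, and 22.6, 25.8 and 44.6 in CSA. Apart from CFA mouse 72, the mice of the first 3 groups lay between 0.664 and 1.0002. In CSA it was 25.2-fold higher than in CFA, up by 4.66 on the log2 scale (standard error 0.37, limma adjusted p = 5.51e-06) or 4.36 without CSA mouse 03. A pseudocount of 1 gave 3.85.

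Tlr9 (ENSMUSG00000045322, chr9:106222598-106226883), the DNA sensor, read 0.716, 0.968 and 0.567 FPKM in CFS, 0.619, 0.760 and 0.740 in CSS, 0.911, 2.09 and 0.800 in CFA, and 22.8, 15.8 and 14.2 in CSA. Like Cd14, it was lowest in CSA mouse 03 within its group. The rise from CFA to CSA was 13.8-fold, or 3.78 on the log2 scale (standard error 0.33, limma adjusted p = 9.81e-06), and 3.92 without mouse 03. With a pseudocount of 1 it was 3.05 on that scale.

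Tlr3 (ENSMUSG00000031639, chr8:45395665-45411080), a receptor that signals through TRIF alone, had the smallest log2 difference of the endosomal receptors. Its FPKM was 3.38, 1.82 and 2.36 in CFS, 2.53, 2.75 and 2.35 in CSS, 2.72, 2.62 and 3.59 in CFA, and 6.23, 5.22 and 9.64 in CSA. The CSA mice were again above all others. The difference from CFA to CSA was 1.18 on the log2 scale (standard error 0.26, limma adjusted p = 0.00399), below the limit of 1.5, and 0.93 without CSA mouse 03. Of the exonic bases of Tlr3, 7.32% lie in another annotated gene, a share not found for the other 9.

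**Figure D2:**
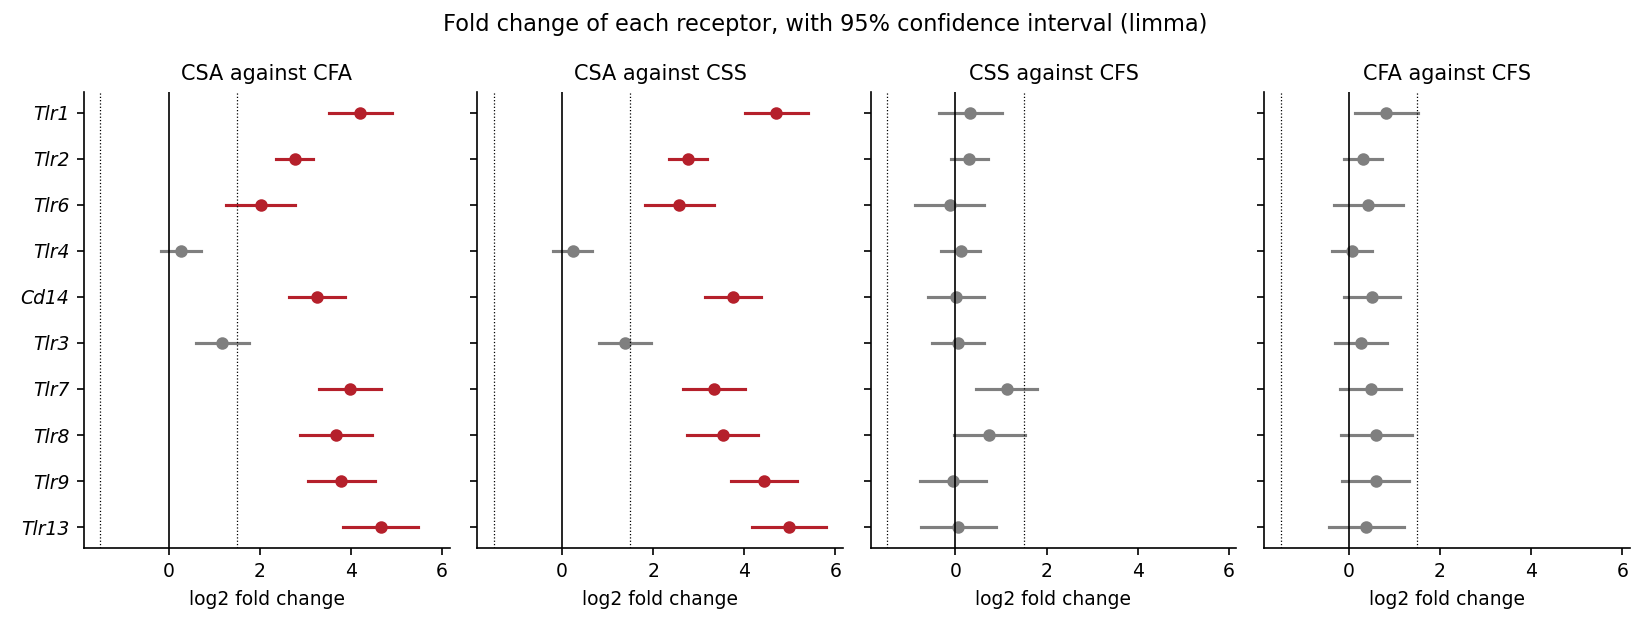
Log2 fold change of each gene in 4 comparisons, with the 95% confidence interval from limma as a bar, dotted lines at the limit of 1.5 in each direction, and red for genes past the adjusted p and the fold limit. In both comparisons with CSA 8 genes are red, led by Tlr13 at 4.66 and 4.98, whereas 0 are red between the saline groups or between CFA and CFS.

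The rank order of the genes changed with the rise. By mean FPKM, which is per length, CFS ran Tlr4, Cd14, Tlr2, Tlr3, Tlr7, Tlr8, Tlr13, Tlr9, Tlr6 and Tlr1. Neighbours overlapped from Tlr4 down to Tlr3 and again from Tlr13 to Tlr6, and stood apart elsewhere. CSS had the same order but for Tlr7 ahead of Tlr3, a pair that overlapped, and CFA had Cd14 ahead of Tlr4 and Tlr9 ahead of Tlr13, pairs that also overlapped. In CSA the order was Cd14, Tlr7, Tlr2, Tlr13, Tlr8, Tlr9, Tlr1, Tlr4, Tlr3 and Tlr6. There Cd14 stood clear of Tlr7, and Tlr1 clear of Tlr4, while all other neighbours overlapped. The means of CSA mice 01 and 02 alone put Tlr2 ahead of Tlr7 and Tlr9 ahead of Tlr8. Tlr4 stood in the first place in CFS and in the eighth in CSA.

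The summed FPKM of the 9 Toll-like receptors was 16.9 to 19.5 in CFS, 20.5 to 24.5 in CSS, 20.0 to 27.2 in CFA and 144 to 229 in CSA, where the highest value is that of mouse 03 and the others are 144 and 149. Tlr4 made up 33.6% to 40.7% of that sum in CFS, 30.5% to 36.3% in CSS, 26.8% to 36.1% in CFA and 4.83% to 5.26% in CSA. The X-linked RNA sensors Tlr7, Tlr8 and Tlr13 together made up 16.3% to 19.4% in CFS, 25.6% to 29.0% in CSS, 16.2% to 29.1% in CFA and 43.3% to 57.0% in CSA. The 5 endosomal receptors held 35.2% to 37.2%, 40.7% to 42.0%, 34.4% to 46.5% and 62.8% to 67.5% in the same order of groups. The CSA range lay outside those of the other groups for all these shares. CSA mouse 03 was at the upper end of its group in each, and without it the upper ends were 5.05% for Tlr4, 50.3% for the RNA sensors and 64.9% for the endosomal receptors.

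**Figure D3:**
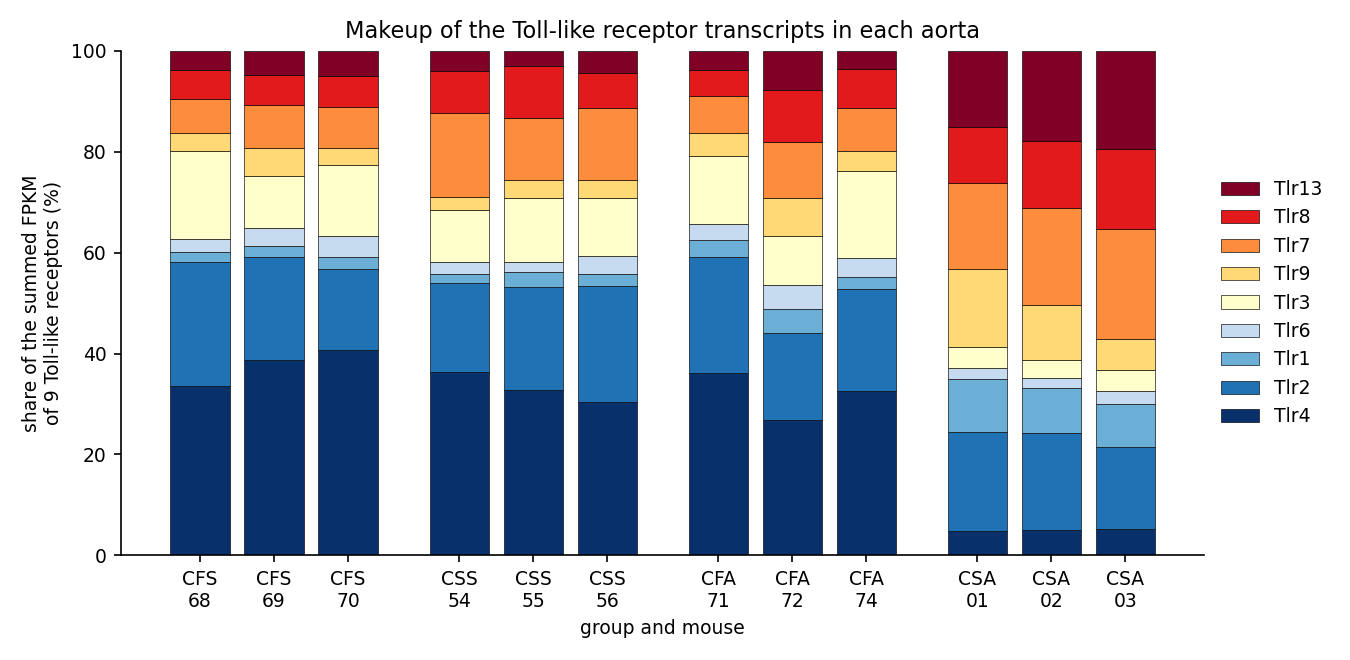
Share of each of the 9 Toll-like receptors in their summed FPKM (%, stacked to 100) for each mouse, with surface receptors in blue and endosomal receptors in yellow to red. The dark blue share of Tlr4 shrinks to 4.83% to 5.26% in the CSA mice, where the 5 endosomal receptors take 62.8% to 67.5%.

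Within CSA, mouse 03 was the highest for 8 genes and the lowest for 2. Its level was 1.31 (Tlr2) to 2.03 (Tlr8) times the mean of mice 01 and 02 for the 8, and 0.739 times for Tlr9 and 0.581 times for Cd14. Its library was also the shallowest, and the part of depth in this difference was not tested. In CFA, mouse 72 was the highest for 9 of the 10 genes. Compared with the mean of the other 2 CFA mice it read 2.82 times for Tlr13, 2.44 for Tlr9, 2.27 for Tlr1 and 2.09 for Tlr8, but 0.832 for Tlr3. Summed myeloid markers were 503 FPKM in that mouse, against 242 and 265 in CFA mice 74 and 71.

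Between the saline groups 0 of the 10 genes were called. In CSS against CFS this was so in both directions, against backgrounds of 0.00681% in each direction, and 1 of the 10 had an unadjusted p under 0.05 (limma), beside 6.30% of all tested genes. That gene was Tlr7, higher by 1.12 on the log2 scale (standard error 0.30, unadjusted p = 0.00377, limma adjusted p = 0.422). Tlr8 gave 0.75 (standard error 0.35, unadjusted p = 0.059, limma adjusted p = 0.805), and Tlr1 gave 0.33. For these 3 all CSS mice were above all CFS mice, which was true of 11.1% of tested genes. The other 7 lay between -0.12 and 0.31, and the median of the 10 was 0.086. Over 18 alternatives, the limma adjusted p of Tlr7 ran from 0.0387 with array weights, where the fold limit was not reached, to 1. Summed lymph node stroma markers were 21.5 to 25.6 FPKM in CSS against 3.55 to 11.7 in CFS, nearly all from Ccl21a, and their part in the Tlr7 values was not tested.

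Ang II in control mice likewise gave 0 calls in either direction in CFA against CFS, against backgrounds of 0.0204% upregulated and 0.00681% downregulated. All 10 log2 fold changes were above 0, from 0.072 for Tlr4 to 0.82 for Tlr1, with a median of 0.45. Tlr1 alone had an unadjusted p under 0.05, beside 9.42% of all tested genes (standard error 0.31, unadjusted p = 0.0242, limma adjusted p = 0.437). Without CFA mouse 72, the value for Tlr1 fell to 0.46 and that for Tlr13 turned from 0.38 to -0.081.

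In CCN2SMCΔ mice, 8 of the 10 genes differed between Ang II and saline. In CSA against CSS these 8 were upregulated and 0 downregulated, against backgrounds of 10.9% and 9.36%. They were the same 8 genes as in CSA against CFA, and both comparisons use the same CSA libraries. Among them Tlr1, Tlr6, Tlr9 and Tlr13 passed the low-value filter only through those libraries, so they had to differ here too. Cd14, Tlr2, Tlr7 and Tlr8 passed it without them. The log2 fold changes were 4.98 for Tlr13, 4.70 for Tlr1, 4.43 for Tlr9, 3.75 for Cd14, 3.53 for Tlr8, 3.34 for Tlr7, 2.77 for Tlr2 and 2.57 for Tlr6, with limma adjusted p-values from 1.18e-06 (Tlr1) to 0.000117 (Tlr6). Tlr3 gave 1.39 (limma adjusted p = 0.0012) and Tlr4 0.23 (limma adjusted p = 0.363). Without CSA mouse 03 all 8 calls remained, at 4.68 for Tlr13, 4.54 for Tlr1, 4.57 for Tlr9, 4.01 for Cd14, 3.19 for Tlr8, 3.03 for Tlr7, 2.64 for Tlr2 and 2.27 for Tlr6, while Tlr3 came to 1.14 and Tlr4 to -0.012.

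The interaction term asks whether the genotype difference under Ang II exceeds that under saline. It was upregulated for 8 genes and downregulated for 0, against backgrounds of 7.89% and 7.31%. Tlr1, Tlr6, Tlr9 and Tlr13 again entered only through the CSA libraries, so a positive term was favoured for 4 of the 8. The term was 4.60 for Tlr13, 3.87 for Tlr1, 3.84 for Tlr9, 3.24 for Cd14, 2.93 for Tlr8, 2.85 for Tlr7, 2.45 for Tlr2 and 2.14 for Tlr6 on the log2 scale (limma adjusted p from 0.000122 to 0.0079). Tlr3, at 1.12 (limma adjusted p = 0.0441, and 0.054 without CSA mouse 03), stayed below the fold limit, and Tlr4 was at 0.16 (limma adjusted p = 0.716). Without CSA mouse 03 the 8 calls remained as well, at 4.30 for Tlr13, 3.72 for Tlr1, 3.98 for Tlr9, 3.50 for Cd14, 2.58 for Tlr8, 2.55 for Tlr7, 2.33 for Tlr2 and 1.84 for Tlr6, and Tlr4 came to -0.084. With limma's treat the interaction was called for 4 genes, Cd14 and the CSA-dependent Tlr1, Tlr9 and Tlr13.

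Most markers of leukocytes were higher in CSA, as the receptors were. The 10 myeloid markers (Ptprc, Csf1r, Adgre1, Cd68, Itgam, Fcgr1, Lyz2, Aif1, Laptm5 and Tyrobp) summed to 155 to 199 FPKM in CFS, 178 to 224 in CSS, 242 to 503 in CFA and 1867 to 1998 in CSA. In CSA against CFA all 10 were upregulated, by a median of 3.17 on the log2 scale, and all but Itgam passed the low-value filter without the CSA libraries. Neutrophil markers summed to 1.32 to 2.79, 1.64 to 1.75, 3.39 to 11.5 and 129 to 165 FPKM in the same order, although Ly6g was listed at 0 in 2 of the 3 CSA mice. T cell markers ran from 0.306 to 1.49 FPKM in CFA and from 12.996 to 19.4 in CSA, B cell markers from 1.26 to 2.41 and from 4.61 to 7.91. Conventional dendritic markers ran from 5.89 to 8.91 in CFA and from 20.95 to 26.7 in CSA. Most of the CSA sums came from Itgax, which myeloid cells share, whereas Zbtb46 was the largest part in every CFA mouse. Between these groups Clec9a was at 0.27 and Zbtb46 at -0.80 on the log2 scale. Plasmacytoid markers ran from 38.1 to 48.1 and from 111 in CSA mouse 03 to 318 and 320 in the other 2 mice, most of it from the interferon-inducible gene Bst2. Of the 20 tested genes of these 5 lists 16 were upregulated, but 14 of the 16 passed the filter only through the CSA libraries and so had to be high there. The 2 that passed without them were the neutrophil marker Csf3r and Bst2. All 5 smooth muscle markers were downregulated. Of 5 endothelial markers 3 were downregulated, while Cdh5 was at -0.36 and Kdr at 0.92, neither past the adjusted p. Of 5 fibroblast markers 0 were called by limma, although their sum was 2078 to 2312 FPKM in CFA and 3498 to 4181 in CSA. Lum at 1.44 and Col1a1 at 0.96 were higher and Dpt at -1.13 lower with an adjusted p under 0.05, below the fold limit. Of the adipocyte markers 1 of 5 was downregulated, and the skeletal muscle list gave 0 calls of 3 tested, with sums of 137 FPKM in CFS mouse 68 and 210 in CSS mouse 55. Without CSA mouse 03 the median log2 difference was 3.29 for the myeloid, 4.71 for the neutrophil, 3.92 for the T cell and 0.15 for the fibroblast markers, against 3.17, 4.70, 3.59 and 0.54 with it. The part of these cell types in the receptor values was not tested.

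Set beside the myeloid markers of the same library, the receptors divided into 3 kinds. The measure is the log2 level of a gene minus the mean log2 level of the 10 myeloid markers, and it asks whether a gene rose more or less than they did. Tlr13, Tlr1 and Tlr9 were higher in CSA than in CFA without overlap, by 1.32, 0.87 and 0.45. This held for 1.34% of tested genes, but all 3 passed the low-value filter only through the CSA libraries, so nothing is read from that share. Tlr4, Tlr3 and Tlr6 were lower without overlap, by -3.06, -2.15 and -1.32, which held for 92.8% of tested genes. Tlr7 (0.64), Tlr8 (0.34), Cd14 (-0.08) and Tlr2 (-0.57) overlapped between the groups. The overlap of Tlr2 rested on CFA mouse 72 alone, at -1.75. CFA mice 71 and 74 were at -0.66 and -0.53, and the CSA mice at -1.64, -1.62 and -1.38. For Tlr9 the groups were barely apart, at -2.76 in CSA mouse 03 and -2.79 in CFA mouse 74. Under saline, Tlr7 was 0.97 and Tlr8 0.59 higher in CSS than in CFS on this measure. The division is not firm: 1 gene was above without overlap with a pseudocount of 1, 7 when Csf1r alone was the reference, 2 with Ptprc alone and 5 without CFA mouse 74, and with Csf1r alone 1 gene was below. Shares of all tested genes are not given for these alternatives, so their counts show only that the division moves. Without CSA mouse 03, Tlr13, Tlr1 and Tlr9 were above at 1.08, 0.76 and 0.64, Cd14 joined them at 0.23, and Tlr4, Tlr3 and Tlr6 were below at -3.26, -2.36 and -1.56.

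**Figure D4:**
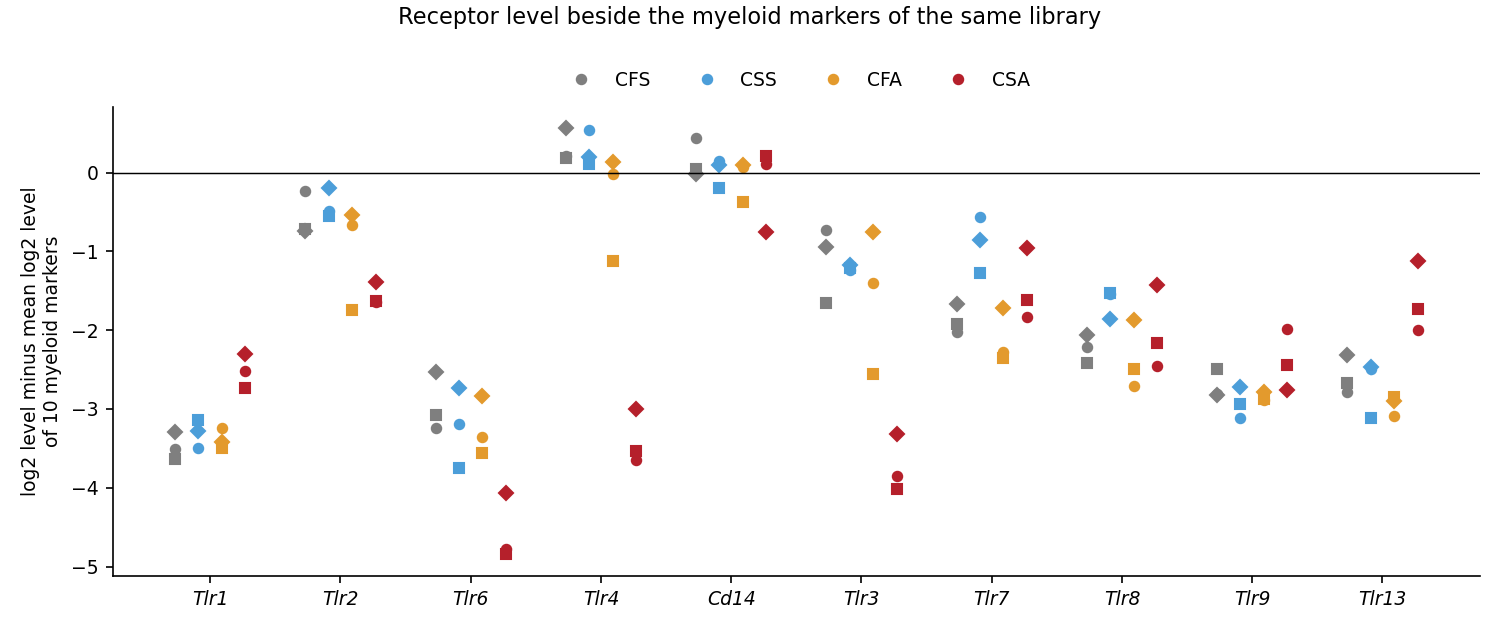
Log2 level of each gene minus the mean log2 level of 10 myeloid markers in the same library, with 1 point per mouse, colours for the groups and a line at 0 where a gene equals the marker mean. On this measure Tlr4, Tlr3 and Tlr6 are lower in the CSA mice than in CFA without overlap, as are 92.8% of tested genes. Tlr13 and Tlr1, which passed the low-value filter only through CSA, are higher. Tlr7, Tlr8, Cd14 and Tlr2 overlap with CFA.

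Around the receptors, 92 genes of the pathway were taken in 9 lists by role, and 83 of them passed the filter, 12 only through the CSA libraries. In CSA against CFA 32 of the 83 were upregulated and 0 downregulated, beside the 8.95% and 8.27% of all tested genes, at a median of 0.90, and without CSA mouse 03 the count was 33. In CSS against CFS and in CFA against CFS 0 of the 83 were called by limma, with 6 and 16 at an unadjusted p under 0.05, beside 6.30% and 9.42% of all tested genes. Of those 12, 11 were upregulated, 8 of them target genes. A count of 0 of 16, as for the kinases and ubiquitin ligases, lies near the 8.95%, and the lists were not tested against each other. Without CSA mouse 03 the log2 differences of the pathway genes named below moved by at most 0.51 (Irf5), and those of Ly96 and Irak3 came to 1.11 and 1.16.

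Among coreceptors and chaperones, 3 of 9 were upregulated. Cd180, a receptor relative that restrains lipopolysaccharide responses, was at 4.09 on the log2 scale, but passed the filter only through the CSA libraries. Ly86, which encodes the partner of CD180, was at 3.82, and Unc93b1, the carrier of endosomal Toll-like receptors, was at 2.24. Ly96, which encodes MD-2, went from 2.92, 2.35 and 1.89 FPKM in CFA to 5.26, 5.13 and 11.7 in CSA, at 1.49 just under the fold limit (limma adjusted p = 0.0051).

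Of 5 adaptors tested 3 were upregulated. Pik3ap1, which links receptors to phosphoinositide kinase, was at 3.79, Myd88 at 1.68 and Ticam2, which passed the filter only through the CSA libraries, at 1.64. Myd88 read 8.62, 12.2 and 10.1 FPKM in CFA and 33.3, 34.7 and 31.03 in CSA, with the groups apart and CSA mouse 03 close to its group mates. Ticam1, the gene of TRIF, was at -0.045. The kinases and ubiquitin ligases downstream showed 0 calls of 16 by limma, with 6 at an adjusted p under 0.05 below the fold limit and 8 at an unadjusted p under 0.05, near the 40.7% and 49.0% of all tested genes. Their median was 0.27, with Irak4, the first kinase after MyD88, at 1.07 and the interferon-inducing kinases Ikbke and Tbk1 at 0.72 each.

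Of the transcription factors 4 of 10 were upregulated. Irf7, a driver of type I interferon genes, was at 5.42, Irf8, which acts in myeloid development, at 2.99, Irf5 at 2.80 and Rel at 1.97. Irf7 read 1.26, 5.98 and 2.47 FPKM in CFA and 138, 121 and 99.9 in CSA, so that every CSA mouse was far above every CFA mouse. Inhibitors gave 2 of 12, Nfkbie at 1.97 and Nfkbiz at 1.85, both of the IκB family, and Irak3 lay just below the limit at 1.48.

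Endosomal processing and nucleic acid handling gave 5 of 9 tested. Ctss, the gene of cathepsin S, was at 4.60, Slc15a3, an endosomal peptide and histidine carrier that passed the filter only through the CSA libraries, at 4.25 and Pld4, an exonuclease of endosomes, at 3.37. Of 16 target genes 13 were tested and upregulated, with the chemokine Ccl4 at 6.06, the interleukin-1 receptor antagonist Il1rn at 5.97 and the chemokine Cxcl10 at 5.66. Of these 13, 8 passed the filter only through the CSA libraries and so had to be high there, Ccl4 and Il1rn included. The 5 that passed without them were Cxcl10, the cytokine Il1b at 5.604, the chemokines Cxcl1 at 3.80 and Ccl5 at 3.61, and the prostaglandin synthase Ptgs2 at 1.76. CFA mouse 72 read far above CFA mice 71 and 74 for some target genes. Cxcl10 was 8.14 FPKM there against 0.265 and 0.272, Il1b 5.44 against 1.08 and 0.470, and Il1rn 1.17 against 0.0166 and 0.179. Log2 differences of target genes without CFA mouse 72 are not given. Of 8 genes for reported endogenous ligands 2 were upregulated, S100a8 at 5.27 and S100a9 at 4.81, the calprotectin subunits that neutrophils hold in quantity. The matrix proteoglycan Bgn was at -0.75. Of the Toll-like receptors outside the 10 genes, Tlr5 was at 0.76 (limma adjusted p = 0.0467), and Tlr11 and Tlr12 did not pass the filter, with at most 0.877 and 0.713 FPKM in any library.

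**Figure D5:**
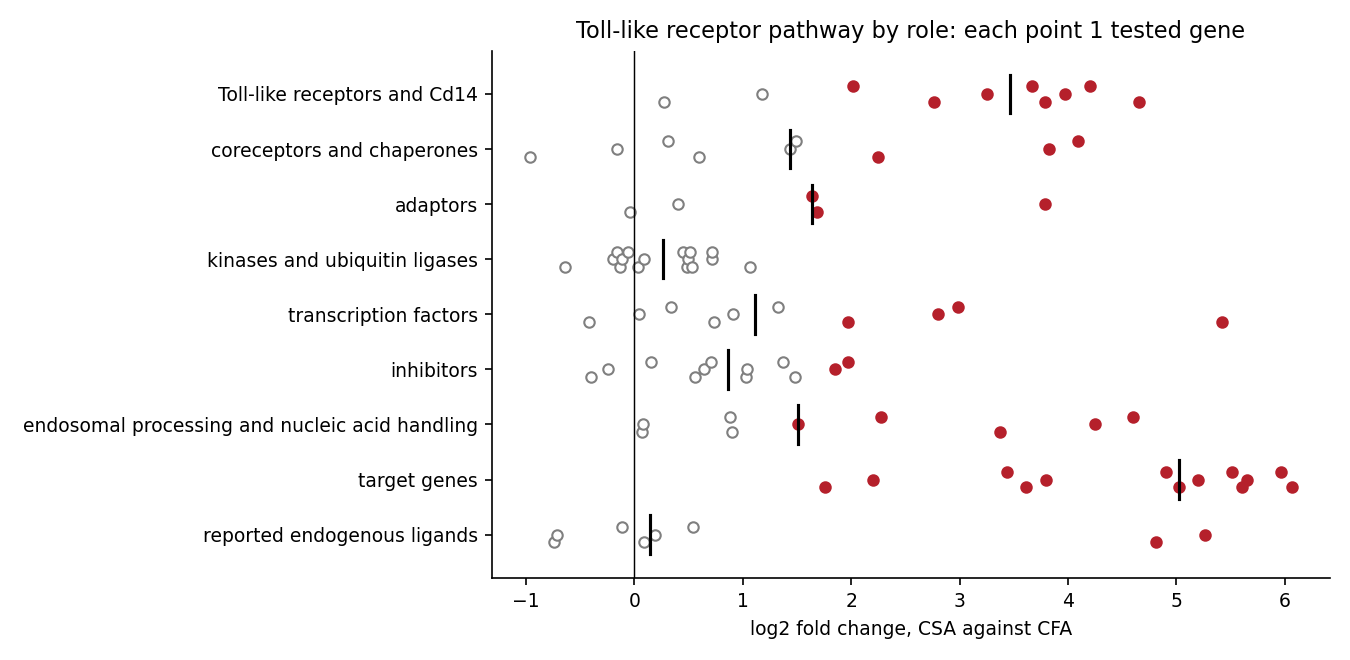
Log2 fold change in CSA against CFA of the 10 genes and of the tested pathway genes in 8 of the 9 lists (Toll-like receptors outside the 10 genes are left out, with 1 tested), with 1 point per gene, filled where upregulated, and a bar at the median. Target genes lie to the right with a median of 5.03, 8 of the 13 having passed the filter only through CSA, and the kinases cluster near 0 with a median of 0.27.

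The genes of the table with the most similar profile were sought for each of the 10, as the smallest root mean square difference of gene-centred log2(FPKM + 0.1) over the 12 libraries. Tlr7 and Tlr8 were each the nearest of all tested genes to the other, at 0.274, followed by Gm42793 (0.335) and Cd3e for Tlr7 and by Ipcef1 (0.277) and Batf for Tlr8. For Tlr1 the nearest were C3ar1 (0.196), Cd53 and Clec12a, for Tlr13 Clca3a2 (0.272), C3ar1 and Gpr65, for Tlr9 Selplg (0.236), Fcer1g and Pik3ap1, and for Cd14 Card9 (0.222), Pld4 and Neurl3. For Tlr2 they were Ddx60 (0.187), Fam49b and Runx2, and for Tlr6 St8sia4 (0.255), Arhgap19 and Nav3. Tlr3 came nearest to Fbxo5 (0.137), Fli1 and Zc3hav1, and Tlr4 to Erbin (0.0686), Tmem123 and Tbc1d15. In contrast to Tlr7 and Tlr8, the neighbouring genes Tlr1 and Tlr6 were not closest to each other: among the 10, Tlr1 was nearest to Tlr13 (0.338) and Tlr6 to Tlr2 (0.469).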

How the data were processed

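FPKM per gene for every mouse were deposited by the authors in 1 table of 55092 features, and 0 sample columns were left unused. Libraries were made from poly(A) RNA and read in pairs. The submitters' processing notes name mm10, HISAT2 2.0.5, StringTie 1.3.3b and featureCounts 1.5.0-p3 without their roles, and the annotation release and use of strand are not given in the sources used here. Names and positions come from GENCODE M21 on GRCm38 (54495 identifiers matched) and promoter windows from RefSeq. Depth was recovered from low values: by the exon lengths, 97.8% to 98.4% of those below 100 fragments were whole within 0.02, though Cd14 alone of the 10 genes was not. The deposited FPKM already hold a scaling between libraries, their median log2 ratio being equal in all 12, so levels are relative.

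limma 3.58.1 in R 4.3.3 (eBayes with trend and robust settings) was run on log2(FPKM + 0.1), which understates changes of low genes, with 1 coefficient for each of 4 groups. Genes with 1 FPKM or more in at least 3 libraries entered, and Benjamini-Hochberg adjustment covered all 14676. DEG-Seq, which the study used, takes counts and was not run on the recovered fragments. The sources do not say whether mice shared a litter or day. In the main fit each gene has 1 estimate of the spread between mice, pooled within the 4 groups and moderated over genes. The p-values rest on that estimate and not on the spread of the compared groups alone. The 10 genes, lists and motifs were chosen with earlier results of these data known. Up to 3 tested pathway genes per list are named, those with the largest absolute log2 difference between CSA and CFA. Ly96, Ticam1, Rel, Il1b, Cxcl1, Ccl5, Ptgs2 and single markers with a value were named after their values were seen. Alternatives were a pseudocount of 1, other filters, scalings, limma settings and limits, and leaving out each mouse, and those of the pathway and marker lists were added after the data were seen. Python 3.11.15 with pandas 2.3.3 made the tables, and matplotlib 3.10.9 the plots.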

Additional observations from a re-analysis of the deposited data

Results flagged for a closer look

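The difference between CSA and CFA mice exceeded that between CSS and CFS mice for 8 genes, by the interaction term of limma. Of all tested genes, 7.89% were upregulated and 7.31% downregulated by this term. On the log2 scale the excess of the 8 genes was 4.60 for Tlr13, 3.87 for Tlr1, 3.84 for Tlr9, 3.24 for Cd14, 2.93 for Tlr8, 2.85 for Tlr7, 2.45 for Tlr2 and 2.14 for Tlr6. Tlr1, Tlr6, Tlr9 and Tlr13 passed the filter on low values only through the CSA libraries, which favoured a positive term for these 4. Among the 8, Tlr2, Tlr6, Tlr7 and Tlr8 were no longer called with limma's treat (adjusted p = 0.0659, 0.977, 0.115 and 0.16, Benjamini-Hochberg), and Tlr6 was also lost with a pseudocount of 1, at 1.40.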

How the results depend on the processing

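No paired analysis was possible because the groups share no mouse numbers. Of 935 values of single genes under alternatives, 906 kept their direction and their side of the thresholds, 8 lost a call, 4 gained one and 17 changed sign. Part of this agreement was fixed in advance. Median-of-ratios scaling divided every library by the same factor, and settings that changed only the p or fold limit kept the fold changes of the main fit. The interaction was called for 4 genes with limma's treat in place of 8. Genes whose level relative to the myeloid mean was higher in CSA than in CFA without overlap numbered 1 with a pseudocount of 1 and 7 with Csf1r alone, and 3 to 5 when 1 mouse was left out (5 without CFA mouse 74), in place of 3. Genes with a lower relative level in CSA numbered 1 with Csf1r alone in place of 3. The shares of all tested genes under these alternatives are not given. With a mean FPKM of at least 5, Tlr1, Tlr3 and Tlr6 were not tested and 6 genes were called in CSA against CFA and against CSS. Values changed sign as follows. With array weights Tlr3 and Cd14 in CSS against CFS came to -0.034 and -0.032 and the interaction of Tlr4 to -0.074, and with equal totals Tlr9 in CSS against CFS came to 0.000114. Leaving out 1 mouse, CSS against CFS ranged from -0.15 to 0.28 for Tlr3, -0.028 to 0.22 for Tlr4, -0.30 to 0.080 for Tlr6, -0.22 to 0.12 for Tlr9, -0.053 to 0.21 for Tlr13 and -0.18 to 0.19 for Cd14. CFA against CFS ranged from -0.081 to 0.63 for Tlr13, CSA against CSS from -0.012 to 0.37 for Tlr4, and the interaction from -0.084 to 0.30 for Tlr4. The causes were not tested. Tlr3 was called in CSA against CSS without CSA mouse 02 (1.57). Depth limits the low values: the fewest fragments were 22 for Tlr1 and 27 for Tlr6, and these limits cover counting error only.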
